A study of Homo sapiens with 9 samples.

Results

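The genes examined here encode the lysine demethylase LSD1 (KDM1A), its relative LSD2 (KDM1B) and the proteins of the CoREST repressor complex in which LSD1 works. They were chosen by name, with earlier results of these data known, and comprised KDM1A, KDM1B, RCOR1, RCOR2, RCOR3, HDAC1, HDAC2, PHF21A, HMG20B and ZNF217. All 10 were present among the 60675 genes of the files, and all 10 passed the filter on low counts that left 19278 genes for testing. The study names KDM1A among the genes changed in these same libraries, so its result here is not independent of that choice.

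LSD1 removes methyl groups from lysines in the tail of histone H3 and depends on FAD. On its own it acts poorly on nucleosomes; a CoREST protein (RCOR1, RCOR2 or RCOR3) bridges it to the nucleosome and to the deacetylases HDAC1 and HDAC2, so that deacetylation and demethylation occur in one complex. Transcription factors such as REST and SNAI1 bring this complex to their target genes.

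Expression was measured by paired-end RNA-seq in LNCaP:C4-2, a castration-resistant derivative of the LNCaP prostate cancer cell line, in 3 groups of 3 libraries. All cells carried a lentiviral pLKO puromycin-resistance construct, given as doxycycline-inducible for the METTL3 and the scrambled hairpin alike in the study's methods and named pLKO.1-puro for the scrambled hairpin in the labels. The methods speak of stable clones under puromycin selection and the labels of cells with stable integration, and how many clones made up a group is not given in the sources used here. By their labels, the groups carried a scrambled hairpin that targets no gene (shScramble), a hairpin against METTL3 spanning exons 4 and 5 (guide 2), or a further hairpin against METTL3 (guide 1). All were kept in phenol red-free medium with charcoal-stripped serum, and the protocol gives 1 μg/ml doxycycline for 6 days. The sample titles also name a vehicle without saying which. In the study's methods the vehicle is ethanol, the control for androgen treatment in such medium. METTL3 is the catalytic subunit of the RNA m6A methyltransferase. The study asked what its depletion does to gene expression. Nothing in the labels states that the 3 libraries of a group came from separate cultures, so p-values measure only the spread between these libraries.

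The target sites are shown because they define the groups and because METTL3 RNA did not follow both labels. Capitals mark the bases that pair with the seed (positions 2 to 8) of the antisense strand of each hairpin, and both sites were read from METTL3-201 in GENCODE v44 on GRCh38 (minus strand).
guide 2 target: gctgcacttcagaCGAATTAt
guide 1 target: cgtcagtatcttgGGCAAGTt
Both sites were coding. The guide 2 site lay at chr14:21501728-21501739 (exon 4) and chr14:21501121-21501129 (exon 5), and the guide 1 site at chr14:21500633-21500653, in exon 6 of the 11 exons of METTL3-201. The full target of either hairpin occurred in 0 of the canonical transcripts of the 10 genes. The guide 2 seed match CGAATTA was present in 0 of the 10, compared with 3.25% of all 20020 canonical transcripts. The guide 1 seed match GGCAAGT was present in 3 of the 10 (KDM1B, HDAC1 and HDAC2), compared with 17.0% of all. A match is a description of sequence only.

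METTL3 counts were 922, 1010 and 753 in shScramble, 382, 415 and 349 with guide 2, and 837, 837 and 886 in the libraries labelled guide 1. METTL3 was thus lower in every guide 2 library, with a log2 fold change of -0.95 (SE 0.0687, adjusted p = 2.97e-12, edgeR quasi-likelihood test), whereas the difference with guide 1 was -0.08 (SE 0.0633, adjusted p = 0.251). A knockdown that failed and a mix-up of samples or constructs cannot be told apart here. The group labelled guide 1 is therefore referred to by its label throughout, and its differences are not described as effects of METTL3 depletion. METTL3 shares 6.58% of its exon bases with TOX4 on the opposite strand.

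Library totals lay between 21899501 and 30897639 counts. TMM factors were 0.928 to 0.940 in guide 2 and 1.017 to 1.044 in the other libraries, and 24884 to 26505 genes were detected with guide 2 compared with 28459 to 29628 in the rest. The guide 2 libraries therefore stand apart in composition, and values that rest on the scaling are given below under library size alone where the call changed. Luminal prostate markers were present in every library: the 8 markers used summed to 2481 to 2527 CPM in shScramble, 2746 to 2891 CPM with guide 2 and 1253 to 1288 CPM in guide 1. Of 10 markers of blood, vessel, stromal and basal cells, 5 had 0 counts in all libraries (CD3E, PECAM1, DCN, KRT5 and TP63), and the list summed to 43.7 to 47.8, 36.2 to 40.2 and 19.6 to 26.4 CPM in the same order, mostly COL1A1. The part of these marker differences in the results below was not tested. In bulk RNA, fewer cells of a kind and less RNA per cell cannot be told apart.

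With guide 2, KDM1A rose and RCOR2 fell, while the other 8 genes stayed under a 1.5-fold difference. In the libraries labelled guide 1, RCOR2 and HDAC2 rose and ZNF217 fell. A gene was called when its Benjamini-Hochberg adjusted p over all 19278 tested genes was under 0.05 and its fold change was at least 1.5. The raised share of all tested genes was 8.85% with guide 2 and 21.2% with guide 1, and the lowered share was 20.4% and 16.5%, and the counts of the 10 genes (1 raised and 1 lowered with guide 2, 2 raised and 1 lowered in guide 1) lie near or under those shares. Both comparisons share the shScramble libraries.

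At the adjusted p alone, 6 of the 10 genes were higher and 3 lower with guide 2, where 30.0% of all tested genes were higher and 31.7% lower. With library size alone, HDAC2 no longer passed with guide 2 and PHF21A passed as lower. In guide 1, 5 were higher and 3 lower, where 35.4% and 33.0% of all genes were. The libraries of the 2 groups did not overlap for 9 of the 10 genes with guide 2 (66.5% of all genes) and for 7 of the 10 in guide 1 (71.0% of all genes). The median log2 fold change of the 10 genes was 0.27 with guide 2, beside -0.04 over all tested genes, and 0.05 in guide 1, beside -0.02. The summed level of the 10 genes was 1212 to 1252 CPM in shScramble, 1382 to 1422 CPM with guide 2 and 1214 to 1235 CPM in guide 1. These sums depend on the scaling, with TMM factors of 0.928 to 0.94 with guide 2 and 1.032 to 1.044 in shScramble. Sums without the factors were not compared, so no higher level of the complex as a whole is read from them.

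**Figure D1:**
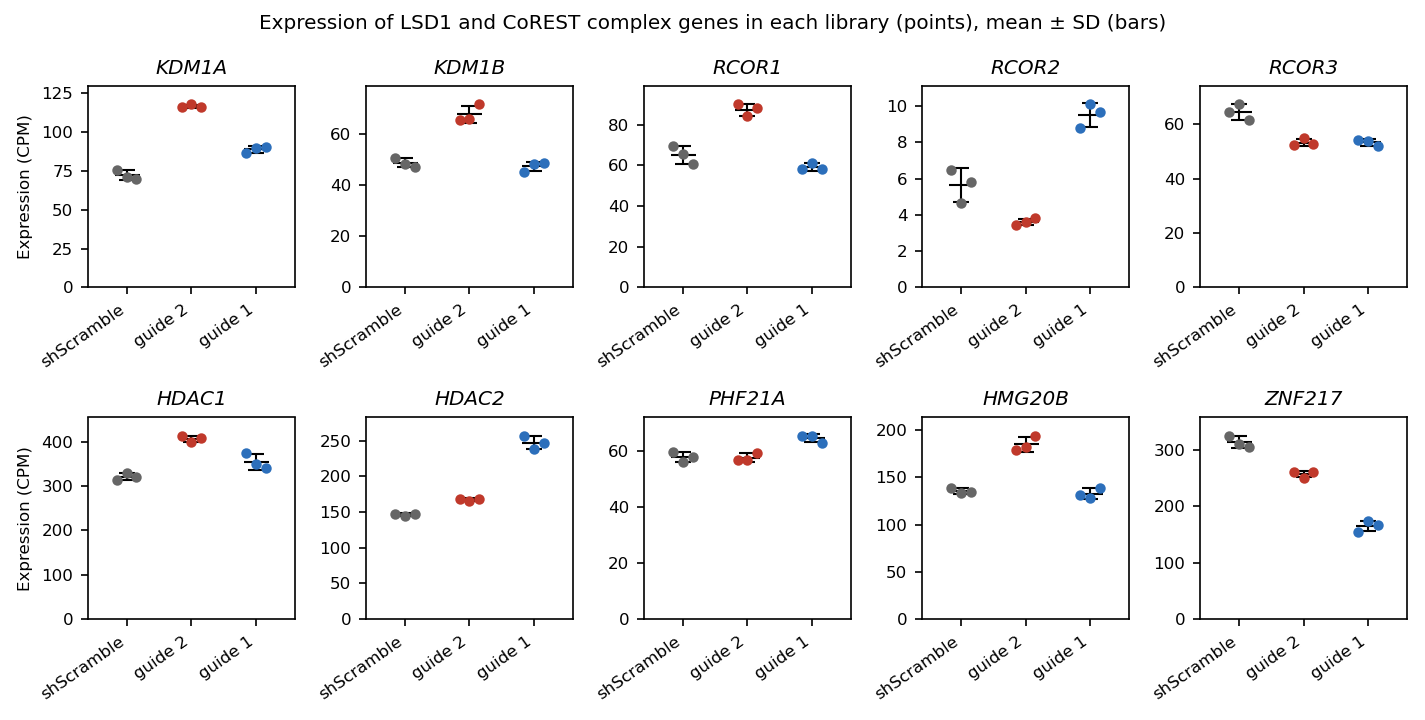
Expression of the 10 genes in CPM (counts scaled by TMM to a common library size; each vertical axis starts at 0) in each of the 9 libraries (points), with the mean and SD of 3 libraries per group (bars). The KDM1A points of guide 2 lie above all others, the RCOR2 points order as guide 2, shScramble and guide 1, and the ZNF217 points fall from shScramble through guide 2 to guide 1.

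The demethylases were considered first. KDM1A (chr1:23019448-23083689, plus strand) gave 75.9, 70.9 and 70.2 CPM in shScramble, 116, 118 and 116 CPM with guide 2, and 86.4, 89.7 and 90.6 CPM in guide 1. Every guide 2 library was above every guide 1 library, and these were above every shScramble library. The log2 fold change was 0.69 with guide 2 (SE 0.047, adjusted p = 8.75e-13, a 1.61-fold rise) and 0.30 in guide 1 (SE 0.047, adjusted p = 2.97e-06), which is under 1.5-fold. Tested directly, guide 2 was higher than guide 1 by 0.39 (SE 0.0465, adjusted p = 1.63e-08), also under 1.5-fold. The call with guide 2 depended on the scaling. Without TMM factors (library size alone) the KDM1A value was 0.54 and was not called, the median of all genes moved from -0.04 to -0.19, and the raised share of all calls moved from 30.2% to 17.2%.

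KDM1B lies at chr6:18155329-18223853, RCOR1 at chr14:102592661-102730576, RCOR3 at chr1:211258377-211316385, HDAC1 at chr1:32292086-32333635 and HMG20B at chr19:3572777-3579088, all on the plus strand. RCOR2 (chr11:63911221-63916844), HDAC2 (chr6:113933028-114011308), PHF21A (chr11:45929323-46121178) and ZNF217 (chr20:53567065-53609907) lie on the minus strand. Coordinates are those of the files (GRCh38), and each value covers all exons of a gene.

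The promoters of the called genes that had an entry in RefSeq (GRCh38.p14, from 250 bases before the start to 50 after it) are given below, as sequence at an annotated start. The HDAC2 and ZNF217 windows lie inside the spans whose exons were counted. RNA values of these genes are therefore not tied to the starts shown. Capitals mark GC boxes (GGGCGG on either strand), the only motif marked. The KDM1A window is chr1:23019218-23019517 (plus strand), that of HDAC2 is chr6:113971099-113971398 (minus strand) and that of ZNF217 is chr20:53593790-53594089 (minus strand).
KDM1A promoter: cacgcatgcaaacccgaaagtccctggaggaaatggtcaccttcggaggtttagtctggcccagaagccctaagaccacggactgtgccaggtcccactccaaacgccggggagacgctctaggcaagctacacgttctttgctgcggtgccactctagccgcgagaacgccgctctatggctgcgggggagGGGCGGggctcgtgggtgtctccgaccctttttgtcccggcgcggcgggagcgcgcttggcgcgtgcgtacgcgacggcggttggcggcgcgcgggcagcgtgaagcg
HDAC2 promoter: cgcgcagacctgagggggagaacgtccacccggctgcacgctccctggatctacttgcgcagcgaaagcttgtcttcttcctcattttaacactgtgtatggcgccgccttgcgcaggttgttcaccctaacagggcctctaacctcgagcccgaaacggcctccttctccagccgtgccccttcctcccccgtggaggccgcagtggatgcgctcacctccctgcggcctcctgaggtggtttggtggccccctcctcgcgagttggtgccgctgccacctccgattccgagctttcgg
ZNF217 promoter: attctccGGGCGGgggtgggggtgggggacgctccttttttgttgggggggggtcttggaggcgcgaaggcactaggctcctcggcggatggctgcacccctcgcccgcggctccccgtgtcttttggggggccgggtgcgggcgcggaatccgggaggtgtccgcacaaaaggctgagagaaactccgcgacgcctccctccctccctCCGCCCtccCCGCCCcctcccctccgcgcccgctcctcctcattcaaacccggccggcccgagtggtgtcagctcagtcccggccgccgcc
GC boxes numbered 1 in KDM1A, 0 in HDAC2 and 3 in ZNF217. Of all 35116 promoter windows, 45.0% held a GC box. The E-box CACGTG, present in 7.26% of all windows, was in none of the 12 windows available for 9 of the 10 genes. These are matches of letters and say nothing of binding.

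The 5 genes nearest to KDM1A in the pair of log2 fold changes, among 10366 genes at a mean of at least 10 CPM, were RASSF5 (distance 0.0336), ABHD17C (0.0359), MRPS2 (0.0406), UXS1 (0.0431) and HSDL2 (0.0444). Their guide 2 values were 0.66 to 0.71 and their guide 1 values 0.26 to 0.32. These lie close by construction.

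KDM1B, which demethylates the same histone residue outside the CoREST complex, was higher with guide 2, under 1.5-fold, and overlapped shScramble in guide 1. It gave 50.6, 48.3 and 47.1 CPM in shScramble, 65.4, 65.8 and 71.4 CPM with guide 2 and 45.2, 48.0 and 48.5 CPM in guide 1. Every guide 2 library was above every other library. The log2 fold change was 0.47 with guide 2 (SE 0.054, adjusted p = 2.06e-08) and -0.04 in guide 1 (SE 0.0545, adjusted p = 0.487). Guide 2 exceeded guide 1 by 0.51 (SE 0.054, adjusted p = 1.57e-09). None of the 3 reached 1.5-fold.

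The CoREST scaffolds differed from one another. RCOR1, the most studied of the 3, gave 69.4, 65.7 and 60.5 CPM in shScramble, 90.0, 84.1 and 88.0 CPM with guide 2 and 58.1, 61.4 and 58.4 CPM in guide 1. It was higher with guide 2 in every library (log2 fold change 0.42, SE 0.0527, adjusted p = 1.06e-07), and lower in guide 1 with overlapping libraries (-0.14, SE 0.0532, adjusted p = 0.022). RCOR3, which has been found to oppose RCOR1 in blood cell differentiation, gave 64.5, 67.4 and 61.8 CPM in shScramble, 52.3, 54.9 and 52.7 CPM with guide 2 and 54.4, 54.0 and 52.0 CPM in guide 1. Every library of both groups was below every shScramble library (-0.28, SE 0.0517, adjusted p = 3.91e-05 with guide 2, and -0.27, SE 0.051, adjusted p = 2.9e-05 in guide 1), and between guides the difference was -0.00 (SE 0.0522, adjusted p = 0.94). All of these RCOR1 and RCOR3 differences from shScramble were under 1.5-fold. Between the 2 groups RCOR1 was higher with guide 2 by 0.56 (SE 0.053, adjusted p = 2.02e-10), also under 1.5-fold; this became a call without guide 2 replicate 2 and without guide 1 replicate 2 (0.59 in each).

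RCOR2 was the only one of the 10 genes called in opposite directions in the 2 groups. Its counts were 201, 148 and 133 in shScramble, 80, 90 and 84 with guide 2 and 250, 280 and 289 in guide 1, equal to 6.50, 4.65 and 5.83, then 3.47, 3.59 and 3.81, then 8.78, 10.1 and 9.67 CPM. No group overlapped another. RCOR2 fell with guide 2 (log2 fold change -0.64, SE 0.144, adjusted p = 0.000382) and rose in guide 1 (0.75, SE 0.124, adjusted p = 5e-06). The direct comparison of guide 2 with guide 1 gave -1.39 (SE 0.136, adjusted p = 3.6e-10). RCOR2 was the lowest of the 10 genes and its call with guide 2 was lost without shScramble replicate 1 (-0.51).

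With TMM scaling, the deacetylase HDAC1 lay further from shScramble in the guide 2 libraries, and HDAC2 in the libraries labelled guide 1. HDAC1 gave 313, 329 and 321 CPM in shScramble, 413, 399 and 407 CPM with guide 2 and 374, 349 and 340 CPM in guide 1, a log2 fold change of 0.34 (SE 0.0462, adjusted p = 3.86e-07) and of 0.14 (SE 0.0461, adjusted p = 0.00807). HDAC2 gave 148, 144 and 147 CPM in shScramble, 168, 166 and 169 CPM with guide 2 and 257, 238 and 247 CPM in guide 1. Every library of either group exceeded every shScramble library for both genes. HDAC2 rose in guide 1 by 0.76 on the log2 scale (SE 0.0435, adjusted p = 6.42e-15), and its difference with guide 2 was 0.20 (SE 0.0438, adjusted p = 0.000344), under 1.5-fold. That guide 2 difference was 0.05 with library size alone (edgeR adjusted p = 0.347). The HDAC2 difference of guide 2 from guide 1 was -0.56 (SE 0.0434, adjusted p = 2.86e-12), just under the limit. With library size alone it was -0.70, and with a minimum mean of 1 CPM it was -0.60, and it was called in both. HDAC2 holds the guide 1 seed match, as do KDM1B and HDAC1, whose guide 1 values are given above, and the part of these matches was not tested.

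Of the accessory proteins, PHF21A (BHC80), which binds unmethylated histone H3, gave 59.8, 56.2 and 58.1 CPM in shScramble, 57.0, 56.9 and 59.6 CPM with guide 2 and 65.6, 65.6 and 63.2 CPM in guide 1. Its guide 2 difference was -0.01 (SE 0.0504, adjusted p = 0.932), and it was the only one of the 10 whose guide 2 libraries overlapped shScramble. In guide 1 it was higher by 0.16 (SE 0.0494, adjusted p = 0.00593). HMG20B (BRAF35), a DNA-bending subunit, gave 139, 133 and 135 CPM in shScramble, 179, 182 and 194 CPM with guide 2 and 131, 128 and 139 CPM in guide 1. It was higher with guide 2 by 0.44 (SE 0.0467, adjusted p = 4.07e-09) and was -0.04 in guide 1 (SE 0.0468, adjusted p = 0.507). HMG20B shares 9.57% of its exon bases with MFSD12 on the opposite strand, and reads of the pair could be assigned to either gene.

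ZNF217, a zinc finger protein found with CoREST and amplified in several cancers, was lower in both groups than in shScramble. It gave 325, 311 and 305 CPM in shScramble, 260, 251 and 261 CPM with guide 2 and 155, 173 and 166 CPM in guide 1, with no overlap of any pair of groups. It fell in guide 1, with a log2 fold change of -0.93 (SE 0.0471, adjusted p = 3.88e-16). With guide 2 the difference was -0.29 (SE 0.0466, adjusted p = 6.01e-06), under 1.5-fold. Guide 2 was higher than guide 1 by 0.64 (SE 0.0472, adjusted p = 8.73e-13), a call lost with library size alone (0.51). ZNF217 shares 3.69% of its exon bases with 2 genes on the opposite strand.

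In the direct comparison of guide 2 with guide 1, 1 of the 10 genes was called higher with guide 2 (ZNF217) and 1 lower (RCOR2), where 19.1% and 28.2% of all tested genes were. The median of the 10 was 0.30, beside -0.06 over all genes. The smaller differences included HMG20B, higher with guide 2 by 0.48 (SE 0.0467, adjusted p = 3.34e-10), HDAC1, higher by 0.20 (SE 0.0461, adjusted p = 0.000361), and PHF21A, at -0.16 (SE 0.05, adjusted p = 0.0044). With library size alone, the median of all genes moved from -0.06 to -0.20 and the raised share of calls from 40.4% to 31.3%.

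**Figure D2:**
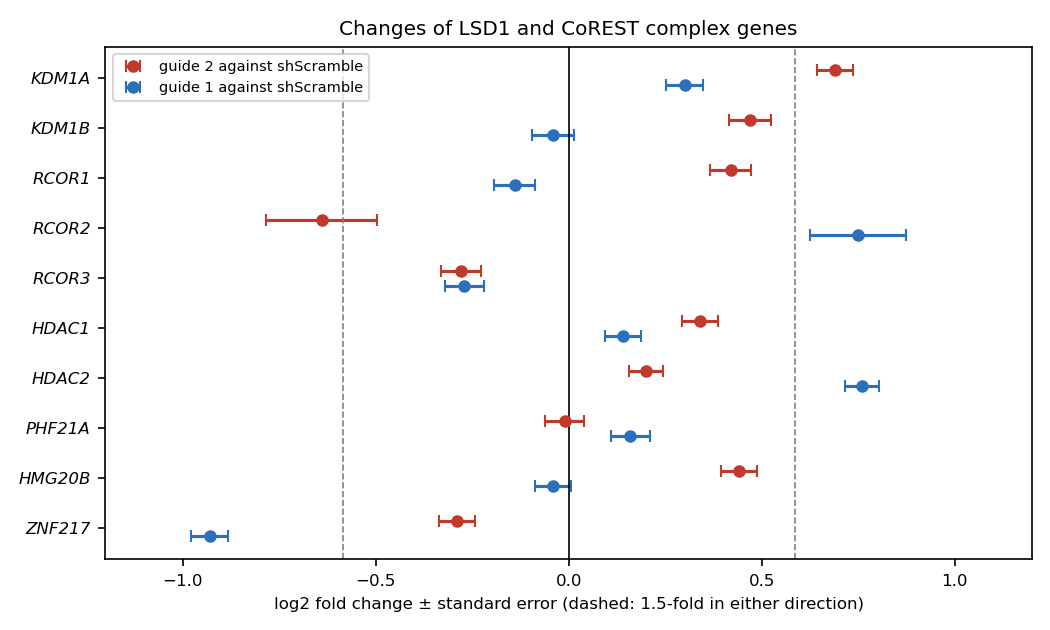
Log2 fold change (horizontal axis) with its standard error (bars) of each of the 10 genes with guide 2 (red) and guide 1 (blue) against the same shScramble libraries; dashed lines mark 1.5-fold. KDM1A and RCOR2 lie beyond a line with guide 2, and RCOR2, HDAC2 and ZNF217 with guide 1, RCOR2 on opposite sides.

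Levels were compared between genes per length, as RPKM (reads scaled by library size and by the exon bases in the files). In shScramble the order in RPKM was HDAC1 (81.0), ZNF217 (50.8), HMG20B (35.2), KDM1A (13.3), KDM1B (10.6), RCOR1 (10.5), HDAC2 (9.46), RCOR3 (7.1), PHF21A (5.19) and RCOR2 (2.07). KDM1B and RCOR1 overlapped, and no other neighbours in this order did. The order depended on the length used. On the length of the GENCODE canonical transcript, HMG20B (85.7 RPKM) preceded ZNF217 (54.2 RPKM), and HDAC2 (15 RPKM) overlapped RCOR3 (14.4 RPKM); HDAC1 and RCOR2 stayed at the ends. With guide 2, HMG20B (47.9 RPKM) exceeded ZNF217 (41.6 RPKM) on exon bases too.

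The share of each paralogue in its family was computed from RPKM in every library. Of KDM1A and KDM1B together, KDM1A made up 55.7 ± 0.291% in shScramble, 59.4 ± 1.28% with guide 2 and 61.4 ± 0.308% in guide 1 (mean ± SD, n = 3). RCOR1 made up 53.4 ± 1.02%, 66.2 ± 1.29% and 50.6 ± 0.135% of the 3 RCOR genes, RCOR2 10.5 ± 1.63%, 6.22 ± 0.315% and 18.3 ± 0.932%, and RCOR3 36.1 ± 1.65%, 27.6 ± 1.15% and 31.1 ± 0.999%. HDAC2 made up 10.5 ± 0.376%, 9.57 ± 0.13% and 15.2 ± 0.474% of HDAC1 and HDAC2 together. The groups did not overlap in any of these shares against shScramble, and each gave an exact permutation p of 0.1 (two-sided), the smallest that 3 libraries against 3 allow. RCOR1 thus held a larger share of its family in every guide 2 library, and RCOR2 in every guide 1 library, than in any shScramble library. On canonical transcript length, RCOR1 was 40.9% in shScramble and 40.4% in guide 1 (exact permutation p = 0.7), so its guide 1 difference depended on the length, whereas its guide 2 share of 53.6% remained apart.

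**Figure D3:**
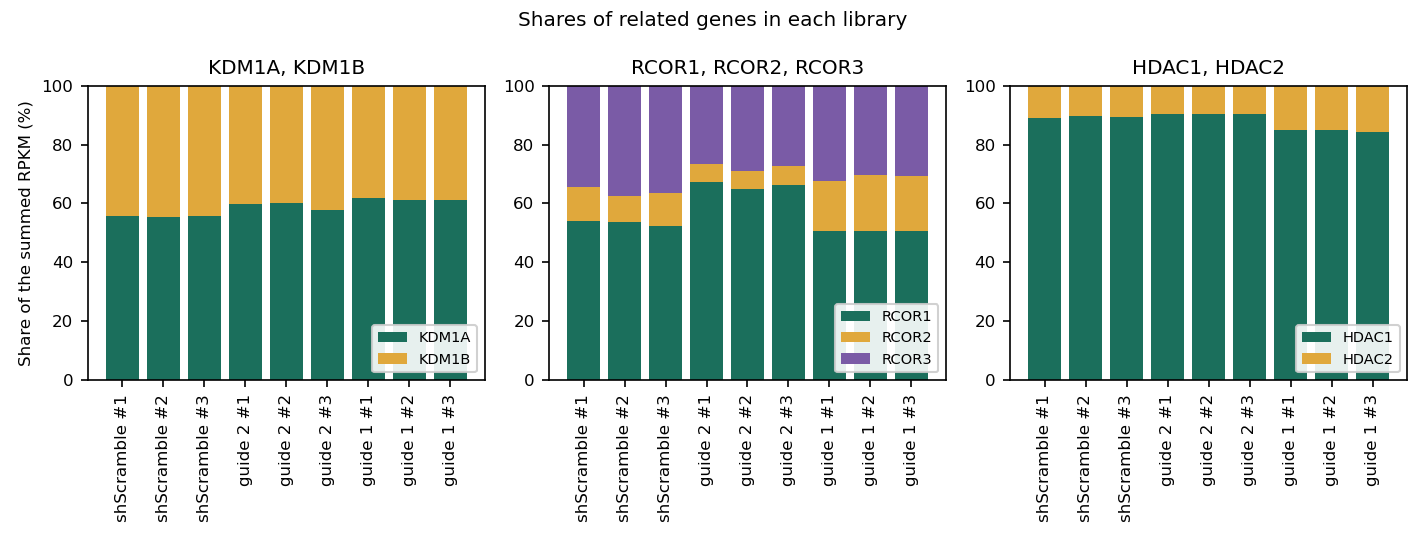
Share of summed RPKM (vertical axis, 0 to 100%) of KDM1A and KDM1B, of the 3 RCOR genes, and of HDAC1 and HDAC2 in each of the 9 libraries, grouped by label. The RCOR1 share is larger in the guide 2 libraries, and the RCOR2 and HDAC2 shares are larger in the guide 1 libraries.

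The pathway around the complex was described by lists of related genes. Values in parentheses after their genes are log2 fold changes of called genes. For those above 3 counts in each group, the SE ran from 0.0455 (JMJD1C) to 0.372 (SYT4) with guide 2 and from 0.0441 (RBBP4) to 0.563 (SYT4) in guide 1, and the highest adjusted p (edgeR) was that of VWF in both, 0.000587 and 0.047. Of 9 transcription factors tested that recruit LSD1-CoREST, 1 was raised and 4 were lowered with guide 2 (median -1.04), 5 were raised in guide 1 (median 2.95), and in the direct comparison 1 was higher and 5 were lower with guide 2. INSM1 and TAL1 (0, 0 and 2 counts) had 3 counts or fewer in every guide 2 library, so these counts are a description only. TAL1 had 5, 3 and 2 counts in shScramble and 31, 41 and 38 in guide 1. Both genes passed the filter through guide 1 alone, so the guide 1 count and median are likewise a description. REST, the repressor of neuronal genes, was not called (log2 fold change -0.07, adjusted p = 0.205 with guide 2, and -0.01, adjusted p = 0.842 in guide 1, edgeR). It gave 67.9 ± 1.61 CPM in shScramble, 64.5 ± 1.03 CPM with guide 2 and 67.3 ± 2.97 CPM in guide 1 (mean ± SD, n = 3). SNAI1 was 1.71, 1.35 and 1.18 CPM in shScramble and 3.64, 3.23 and 2.77 CPM with guide 2 (1.17). ZEB1 was 2.30, 2.17 and 1.62 CPM in shScramble, 0.130, 0.399 and 0.181 CPM with guide 2 (-3.07) and 19.4, 20.4 and 22.6 CPM in guide 1. INSM1 had 14, 18 and 7 counts in shScramble, 3, 2 and 0 with guide 2 and 307, 210 and 258 in guide 1. Its guide 1 value of 4.29 is a description, as it passed the filter through guide 1 alone. GFI1 rose in guide 1 by 3.50. SNAI1, ZEB1, INSM1 and GFI1 were at most 2.30 CPM in any shScramble library, and INSM1 is given no guide 2 fold for its low counts there. With INSM1 and TAL1 at their bound, the guide 2 median was -0.07.

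Further proteins found with LSD1-CoREST showed 1 raised and 1 lowered of 8 with guide 2 (SAMD1 0.91, L3MBTL3 -0.63) and 1 raised in guide 1 (L3MBTL3 1.02), with medians of 0.03 and -0.09. L3MBTL3 gave 6.60, 6.66 and 6.62 CPM in shScramble, 4.46, 4.11 and 4.31 CPM with guide 2 and 12.7, 13.5 and 14.1 CPM in guide 1, with no overlap between groups. HDAC1 and HDAC2 also work in the NuRD and SIN3 complexes. Of 13 NuRD genes, 2 were raised with guide 2 (RBBP7 0.72, CDK2AP1 0.71) and 2 raised and 1 lowered in guide 1 (RBBP7 1.49, RBBP4 0.63, CHD3 -0.60), and the medians were 0.24 and 0.30. With library size alone, both guide 2 calls were lost (RBBP7 0.57, CDK2AP1 0.56) and 0 of the 13 were raised, and without guide 2 replicate 3 the number raised was 4. CDK2AP1 shares 16.46% and RBBP4 18.01% of their exon bases with another gene. RBBP7, a histone-binding subunit, gave 80.8, 84.8 and 93.2 CPM in shScramble, 145, 145 and 135 CPM with guide 2 and 257, 226 and 242 CPM in guide 1. Of 13 SIN3 genes, 0 were called with guide 2 and 2 raised and 1 lowered in guide 1 (SAP30 0.85, SAP30L 0.69, SAP18 -0.69), with medians of 0.12 and 0.04. With guide 2, edgeR gave 5 of the 13 SIN3 genes an unadjusted p under 0.05, and DESeq2 called 0.

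NCoR and SMRT genes gave 0 of 7 calls with guide 2 and 1 raised and 1 lowered in guide 1 (HDAC3 0.59, TBL1XR1 -0.73), with medians of 0.04 and -0.12. With library size alone, HDAC3 in guide 1 was 0.58 and was not called. The other zinc-dependent deacetylases gave 0 of 9 with guide 2 and 2 raised and 1 lowered in guide 1 (HDAC3, HDAC9 and HDAC10; HDAC10 -0.79, with 55.81% of its exon bases shared with MAPK12), with medians of -0.07 and 0.11. HDAC9 had 2, 7 and 3 counts in shScramble and 35, 18 and 29 in guide 1, and passed the filter through guide 1 alone. The guide 1 count and median of these deacetylases are therefore a description only. Of 17 Jumonji demethylases, which remove methyl groups by another mechanism, 3 were lowered with guide 2 (JMJD1C -0.86 and KDM3A -0.61 the furthest) and 1 raised and 2 lowered in guide 1 (KDM4D 1.22, KDM4C -0.66, KDM6A -0.63), with medians of 0.09 and 0.06. Without shScramble replicate 3, 1 was lowered with guide 2. KDM4C shares 32.11% of its exon bases. Of 12 genes of the H3K4 methyltransferases, which oppose LSD1, 0 were called with guide 2 and 2 were raised in guide 1 (SETD1A 0.77, WDR5 0.63), with medians of 0.10 and 0.14. At an unadjusted p under 0.05 with guide 2, edgeR gave 3 of 7 NCoR and SMRT genes, 2 of 9 deacetylases and 8 of 12 methyltransferase genes, and DESeq2 called 1, 0 and 0.

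Of 20 neuronal genes known to be repressed by REST, 14 were tested, and 1 was raised and 7 lowered with guide 2, and 8 raised and 3 lowered in guide 1. With guide 2, 5 of the tested genes (SNAP25, CHGB, SCG3, BDNF and SYN1) had 3 counts or fewer in every library. These genes and SCN2A reached the filter's minimum in too few shScramble and guide 2 libraries. They passed through guide 1 alone, and all but SYN1 were among the genes raised there. SCN2A had 5, 10 and 8 counts in shScramble, 4, 6 and 4 with guide 2 and 18, 26 and 24 in guide 1. The counts of both comparisons are therefore a description only. The number lowered with guide 2 was 2 when only the 6 libraries compared were fitted and also 2 at a minimum mean of 1 CPM, and the number raised was 3 without shScramble replicate 2 and without guide 2 replicate 3. The medians of the 14 were -0.88 with guide 2 (-0.51 with the 5 genes of 3 counts or fewer at their bound) and 0.95 in guide 1. BDNF had 12, 9 and 7 counts in shScramble, 1, 0 and 0 with guide 2 and 27, 52 and 36 in guide 1. SYT4 was the raised gene with guide 2 (1.65) and was lowered in guide 1 (-1.86). It had 10, 13 and 7 counts in shScramble, 27, 31 and 20 with guide 2 and 4, 3 and 1 in guide 1. SYT4 passed the filter through guide 2 alone, so its values are a description. The luminal markers gave 1 raised and 1 lowered of 8 with guide 2 (HOXB13 0.78, KLK3 -0.82) and 5 lowered in guide 1 (FOLH1 -1.15, FOXA1 -0.99 the furthest), with medians of -0.01 and -0.76. Of the other-cell markers, 2 of 10 were tested: VWF was called in both (0.99 and -0.60) and COL1A1 was lowered in guide 1 (-1.04). The VWF libraries of guide 1 and shScramble overlapped. Its guide 1 call was lost with DESeq2 (adjusted p = 0.0668) and under several other alternatives, among them the replicate block and glmTreat.

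**Figure D4:**
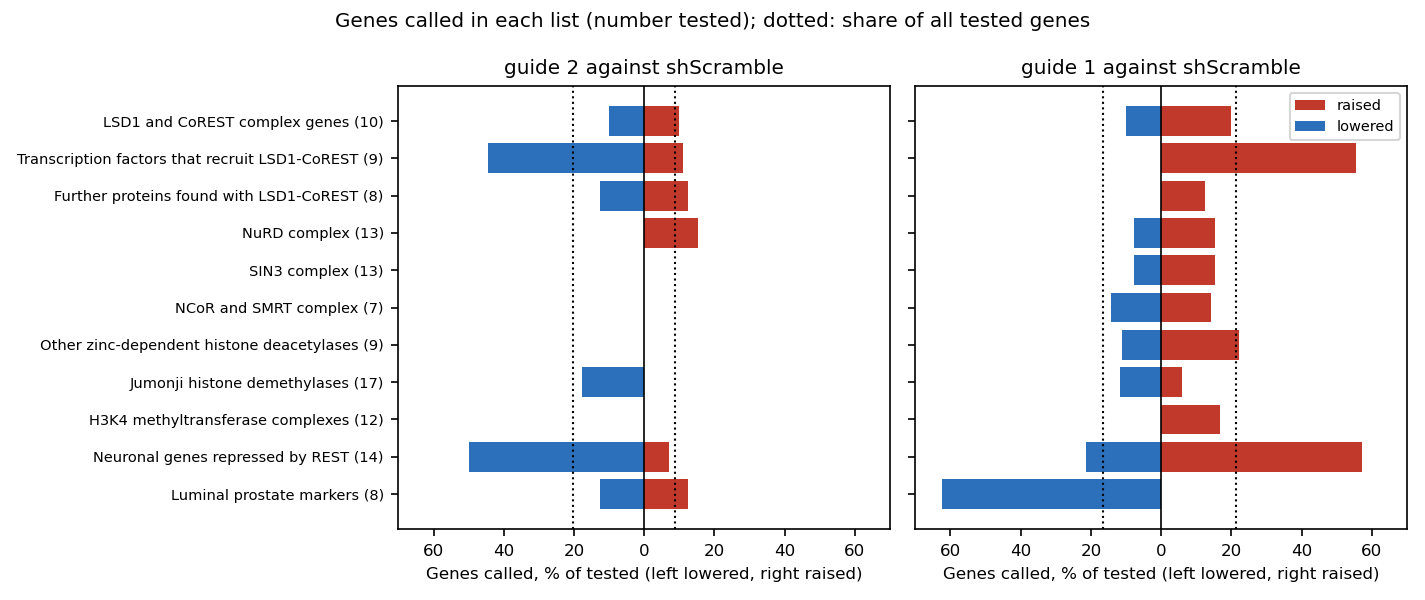
Share of tested genes called raised (red, to the right) or lowered (blue, to the left), in percent, for each list with its number of tested genes; dotted lines mark the share of all tested genes. The LSD1 and CoREST genes lie near or inside the dotted lines in both comparisons. The bars of the recruiting factors, the neuronal genes and the other zinc-dependent deacetylases include genes that passed the filter only through 1 group. These bars are not to be read against those lines.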

How the data were processed

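The 9 RNA-seq libraries were placed in 3 groups of 3 from the sample labels. The authors trimmed adapters and low-quality reads with Trim Galore, cutadapt and FastQC, used STAR for alignment to GRCh38 and featureCounts for reads per gene; they deposited the raw counts, without normalization or pooling. The strand setting is not given in the sources used here, so reads of overlapping genes on opposite strands cannot be told apart. Files held 60675 genes, of which 56558 (93.2%) were given a symbol from an annotation of the same build, and 0 rows named no gene.

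Counts were scaled by TMM and tested with edgeR's quasi-likelihood F test (edgeR 4.0.16, R 4.3.3, robust) with all 9 libraries in one fit, on the 19278 genes that passed filterByExpr at a minimum count of 10 and a minimum total of 15. The common biological coefficient of variation was 0.0512. Genes were called at a Benjamini-Hochberg adjusted p under 0.05 over all tested genes and a fold of 1.5. CPM are TMM-scaled, and fold changes are positive where the named group was higher. A count of 3 was 0.0971 to 0.137 CPM over the 9 libraries, and named genes at or under it in every library of a group are given with their counts. Scripts were tested on simulated data. RPKM used the exon bases in the files, with the canonical transcript length (GENCODE v44) as a further setting, added after seeing the data. Promoters were taken from RefSeq GRCh38.p14. Named genes were all 10 members, METTL3, from each list and for each hairpin up to 2 raised and 2 lowered calls of greatest size, and the 5 genes nearest to KDM1A; REST was added after its values were seen. The members and lists were chosen with earlier results of these data known; some genes of these lists are not reported here and were left out of the lists' counts. Alternatives were DESeq2 1.42.0, its size factors, library size alone, no filter, a mean of 1 CPM, the 6 libraries compared, a replicate block, the adjusted p alone, glmTreat and each library left out.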

Additional observations from a re-analysis of the deposited data

Results flagged for a closer look

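The genes below were chosen by the rule for named genes and were called in the direct comparison of guide 2 with guide 1, which tests whether the 2 groups differ. Values are log2 fold changes, positive where guide 2 was higher. Of the 10 LSD1 and CoREST genes, RCOR2 (-1.39) and ZNF217 (0.64) met this.

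Among genes that recruit or accompany the complex, SNAI1 (1.5) and SAMD1 (0.85) were higher with guide 2, and ZEB1 (-6.40), INSM1 (-6.89), GFI1 (-4.53) and L3MBTL3 (-1.65) were lower. Among other chromatin genes, CDK2AP1 (0.76), CHD3 (0.80), SAP18 (0.81), TBL1XR1 (0.67), HDAC10 (0.72) and KDM6A (0.85) were higher with guide 2, and RBBP7 (-0.77), SAP30 (-0.98), SAP30L (-0.89), HDAC9 (-3.65), KDM3A (-0.75), KDM4D (-0.94) and SETD1A (-0.61) were lower. With library size alone, TBL1XR1 was 0.53 and was not called.

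Among neuronal genes, SYT4 (3.51) and GRIN1 (1.22) were higher with guide 2, and SNAP25 (-4.85), CHGB (-4.85), BDNF (-6.15) and SYN1 (-4.28) were lower. HOXB13 (1.52), FOXA1 (1.31) and FOLH1 (1.26) were higher with guide 2 and KLK3 (-0.97) was lower, and VWF (1.59) and COL1A1 (0.75) were higher. INSM1, HDAC9, SNAP25, CHGB, BDNF and SYN1 had 3 counts or fewer in every guide 2 library, so their fitted values depend on the prior count and are not bounds. Each of these genes passed the filter only through guide 1, where it was highest. SYT4 passed only through guide 2, where it was highest. The direction of these genes is therefore a description and not a test of whether the groups differ. SNAP25 had 5, 8 and 2 counts in shScramble, 1, 0 and 2 with guide 2 and 36, 45 and 36 in guide 1. CHGB had 4, 6 and 5, then 0, 2 and 0, then 27, 28 and 27 counts in the same order. SYN1 had 10, 10 and 13, then 0, 2 and 0, then 17, 15 and 23 counts. HDAC9 had 2, 0 and 3 counts with guide 2. No cause was tested.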

How the results depend on the processing

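Replicate numbers did not pair the libraries: correlations of deviations from the group means were -0.098 to 0.053 for the 9 pairs of the same number and -0.053 to 0.107 for the 18 pairs of different numbers. With the number as a replicate block, 2, 3 and 2 of the 10 genes were called with guide 2, with guide 1 and between guides, and 5494, 7140 and 9027 of all genes, and no call among the 10 changed.

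Of 450 values of the 10 genes under alternatives, 417 kept direction and side of the threshold, 23 became called, 6 lost a call and 4 reversed. Of 1595 values of the other named genes, 1524 kept both, 50 lost a call, 19 became called and 2 reversed. With library size alone, 1 of the 10 was called with guide 2; with the adjusted p alone 9 were, and with glmTreat 1. With the adjusted p alone, 8 were called in guide 1 and 9 between guides; glmTreat gave 1 between guides. glmTreat ended the calls of RCOR2 in both groups and of ZNF217 between them. Over all genes the adjusted p alone gave 11910, 13188 and 14386 calls in the 3 comparisons and glmTreat 3261 with guide 2. Leaving out each library gave 1 to 2 calls with guide 2, 3 throughout in guide 1 and 2 to 3 between guides among the 10, and 5314 to 5625, 7040 to 7269 and 9074 to 9362 over all genes. The log2 fold change of PHF21A with guide 2 reversed to 0.02 without the filter on low counts, and to 0.01 to 0.02 in 3 of the leave-one-out fits; it was never called. FOLH1 and SAP18 with guide 2 became -0.05 and -0.03 with library size alone, uncalled. The cause was not tested.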
